A study of Mus musculus with 3 samples.

Results

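A set of 7 genes of the complement system, *C1ra*, *C1s1*, *C2*, *C3*, *C4b*, *Cfb* and *Serping1*, were followed across the cells of inguinal adipose tissue in single-cell RNA-seq libraries. The genes were chosen by name, with earlier results of these data known, and were 7 of the 32285 genes in the count tables. All 7 were found by symbol, and all 7 passed the filter on low counts in each test. A cell was a barcode with at least 2000 unique molecular identifiers (UMIs, each marking 1 captured RNA molecule) of which at most 10% were mitochondrial. This left 31905 cells, 10511 in the wild-type library, 12575 in the *Mgp*-KO library and 8819 in the *Pd*-KO library.

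The study asked how loss of matrix Gla protein, the product of *Mgp*, alters the progenitor cells of fat. Cells of the stromal vascular fraction (SVF), which is what remains of digested fat once the floating adipocytes are removed, were sorted as DAPI-negative (live) and CD45-negative (depleted of leukocytes), and 3′ ends of their RNA were counted with the 10x Genomics method. All mice were 4 weeks old. Each library pooled inguinal fat of several mice of both sexes. The wild-type mice carried no engineered allele. The *Mgp*-KO mice lacked *Mgp* in every cell (the B6.129S7-Mgp tm1Kry allele). The *Pd*-KO mice carried *Mgp* flox/flox and the *Pdgfra*-Cre transgene, which deletes *Mgp* in cells that have expressed *Pdgfra*, a receptor of mesenchymal cells. The wild-type library served as control for both knockouts, and no library of Cre-negative *Mgp* flox/flox mice was analysed here. There was 1 library per genotype, so genotypes had no replicates, and the labels put all 3 libraries in batch 1.

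Complement is a cascade of plasma proteins that tags surfaces for clearance and recruits leukocytes. In the classical pathway the proteases C1r and C1s, bound to C1q, cleave C4 and C2 to form an enzyme that splits C3; in the alternative pathway factor B, the product of *Cfb*, pairs with C3b to do the same. *Serping1* encodes C1 inhibitor, which inactivates C1r and C1s. The liver makes most circulating complement, but fibroblasts and adipose tissue are known local sources of several components.

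In the GENCODE M21 annotation of mouse genome build GRCm38, which held 99.8% of the gene identifiers in the tables, the 7 members lie in a few clusters. *C1ra* (chr6:124512405-124523443, plus strand) and *C1s1* (chr6:124530345-124542359, minus strand) are neighbours separated by 6901 bp. *C4b* (chr17:34728380-34743882), *Cfb* (chr17:34856374-34862518) and *C2* (chr17:34862604-34898265) are on the minus strand of the region that also holds the major histocompatibility genes, and *Cfb* and *C2* are 85 bp apart. *C3* (chr17:57203970-57228136, minus strand) is elsewhere on that chromosome, and *Serping1* is at chr2:84765387-84775444, minus strand. *C4b*, *C1ra* and *C1s1* each have a near-identical copy in mouse, *C4a*, *C1rb* and *C1s2*. How reads were split between the copies was not tested, so the levels of those 3 members are uncertain to that extent. As counted, *C1rb* and *C1s2* reached at most 1.16 and 1.51 CPM (UMIs of a gene per 1000000 UMIs of the cells summed) and *C4a* at most 1.1 CPM. These maxima are over the cell groups defined below that held at least 50 cells.

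RefSeq upstream sequences on GRCm38.p6 matched 3 members, *C1ra*, *C1s1* and *C3*. *C2*, *C4b*, *Cfb* and *Serping1* were not matched by symbol in the set of sequences used. The 250 bases before a start site are shown for *C1s1* and *C3* because these 2 genes differed in the place of the *Pi16* gate. It was the lowest stromal gate for *C1s1* and the highest for *C3* in 2 of the 3 libraries. The *C1s1* stretch is chr6:124542360-124542609 and the *C3* stretch is chr17:57228137-57228386, both read on the minus strand from 5′ to 3′. Capitals mark a match on either strand to TTGCNNAA, a motif of the C/EBP type. Its ends lie 242 and 235 bases before that *C1s1* start, and 45 and 38 bases before the *C3* start. RefSeq gives another *C1s1* start, whose upstream stretch (chr6:124542322-124542571) holds no match to it.
C1s1: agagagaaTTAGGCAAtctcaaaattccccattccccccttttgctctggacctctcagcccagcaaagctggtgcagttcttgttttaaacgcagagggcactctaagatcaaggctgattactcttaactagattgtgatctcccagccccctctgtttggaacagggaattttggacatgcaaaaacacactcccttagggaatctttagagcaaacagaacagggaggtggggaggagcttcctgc
C3: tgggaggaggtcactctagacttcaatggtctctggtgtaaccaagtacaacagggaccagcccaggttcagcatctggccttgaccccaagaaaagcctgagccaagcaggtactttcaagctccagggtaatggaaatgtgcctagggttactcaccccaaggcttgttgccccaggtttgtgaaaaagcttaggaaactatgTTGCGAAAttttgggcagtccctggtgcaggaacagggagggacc
Neither printed stretch matched, on either strand, an interferon response type (GAAA, any 2 bases, GAAA), a STAT type (TTCNNNGAA) or a kappaB type (GGG, any 3 bases, TTCC), and *C1ra* matched none of the 4 motifs. Over 32536 upstream stretches of the same length, 9.57% held the C/EBP-type letters, 2.98% the interferon type, 7.04% the STAT type and 4.65% the kappaB type. A match describes letters only and is no evidence that a factor binds there.

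Cells were sorted into types by fixed marker genes. A type needed at least 5 marker UMIs per 10000 over at least 2 markers of its list, and a stromal cell had a *Pdgfra* UMI and passed no other type. Stromal cells numbered 6922 in wild-type, 8905 in *Mgp*-KO and 6096 in *Pd*-KO, and values below keep that order. Endothelial cells numbered 659, 224 and 630, mural cells (pericytes and smooth muscle) 806, 177 and 484, and epithelial cells (mammary) 270, 648 and 115. Cells passing more than 1 type, or another type with a *Pdgfra* UMI, were set apart (829, 226 and 312 cells), and no doublet caller was run. A further 784, 2347 and 1072 cells passed no type and had no *Pdgfra* UMI, or 7.46%, 18.7% and 12.2% of the cells kept. They were left out of the stromal cells, and the effect of this on the ratios between genotypes was not tested. Levels are given as CPM, with a 95% exact Poisson interval that covers counting error only.

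Among stromal cells, 4 subsets were gated by at least 2 UMIs of 1 gene and fewer than 2 of the other 3. *Pi16* marks interstitial progenitors, *Icam1* committed preadipocytes, *Mmp3*, a matrix protease, a further preadipocyte subset, and *Gdf10* the cells known as adipogenesis regulators. The *Pi16* gate held 1330, 3238 and 3230 cells, the *Icam1* gate 350, 601 and 100, the *Mmp3* gate 607, 848 and 411, and the *Gdf10* gate 269, 298 and 338. Of the check genes not used for gating, the 3 given here followed these names, and none was listed for the *Mmp3* gate. *Dpp4*, an interstitial progenitor marker, stood at 315, 495 and 717 CPM in the *Pi16* gate and at 10.8 to 83.4 CPM in the other gates, *Bmper* was highest in the *Icam1* gate (118, 468 and 637 CPM), and *Fmo2* was highest in the *Gdf10* gate (358, 736 and 442 CPM). *Mgp* itself was at 487 CPM in wild-type stromal cells against 0.723 CPM in *Mgp*-KO and 1.08 CPM in *Pd*-KO, whereas *Pd*-KO mural cells still held 459 CPM.

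The libraries differed in depth and in processing. Their tables held 184102026, 93212243 and 83942865 UMIs, and the median stromal cell had 14435.5, 6839 and 9368 UMIs. The wild-type table came from Cell Ranger version 4 and both knockout tables from version 7.1.0 according to their headers, so pipeline version and genotype cannot be told apart for differences between wild-type and knockout. The deeper wild-type cells passed several gates more often, 51.1% of stromal cells against 22.8% and 15.5%. Pairs of libraries shared 35 to 40 of the kept barcodes, 112 in all, and the largest move of any of the 70 genotype ratios below without them was 0.0347 on the log2 scale. Markers of other types were low in the 4 gates: the 5 endothelial markers summed to 2.93 to 40.8 CPM, the 6 mural markers to 6.33 to 72.7 CPM, the 6 epithelial markers to 1.16 to 20.8 CPM and the 6 leukocyte markers to 0 to 1.54 CPM, with all 6 leukocyte markers at 0 in the *Icam1* gate of *Mgp*-KO and the *Mmp3* gate of *Pd*-KO.

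Transcripts of the 7 members were mainly stromal, with mural cells close behind for a few of them. The 7 members together made up 2640, 3393 and 2827 CPM of stromal cells, 1257, 1695 and 1506 CPM of mural cells, 468, 239 and 162 CPM of endothelial cells and 152, 112 and 69.4 CPM of epithelial cells. UMIs summed per library and type were compared with edgeR's quasi-likelihood test, with the library as a block and p-values adjusted over 16134 genes. The 3 libraries are the samples in that test and differ in genotype. The block takes out each library's own level, so the spread is that of the type differences over libraries, which includes their change with genotype. Because the members were chosen with earlier results of these data known, the calls below describe them and give no independent support. All 7 members were higher in stromal than in endothelial cells at an adjusted p of at most 0.05, where 26% of all genes were, and all 7 were higher than in epithelial cells, where 30.8% of all genes were. The endothelial call of *Cfb* was lost under several alternatives given with its values. Against mural cells 5 of 7 were higher, *C1s1* and *C2* being the exceptions, where 21.7% of all genes were. The median difference over the 7 members was 4.07 on the log2 scale against endothelial, 1.82 against mural and 4.57 against epithelial cells, beside 0.15, 0.12 and 0.14 over all genes tested.

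**Figure D1:**
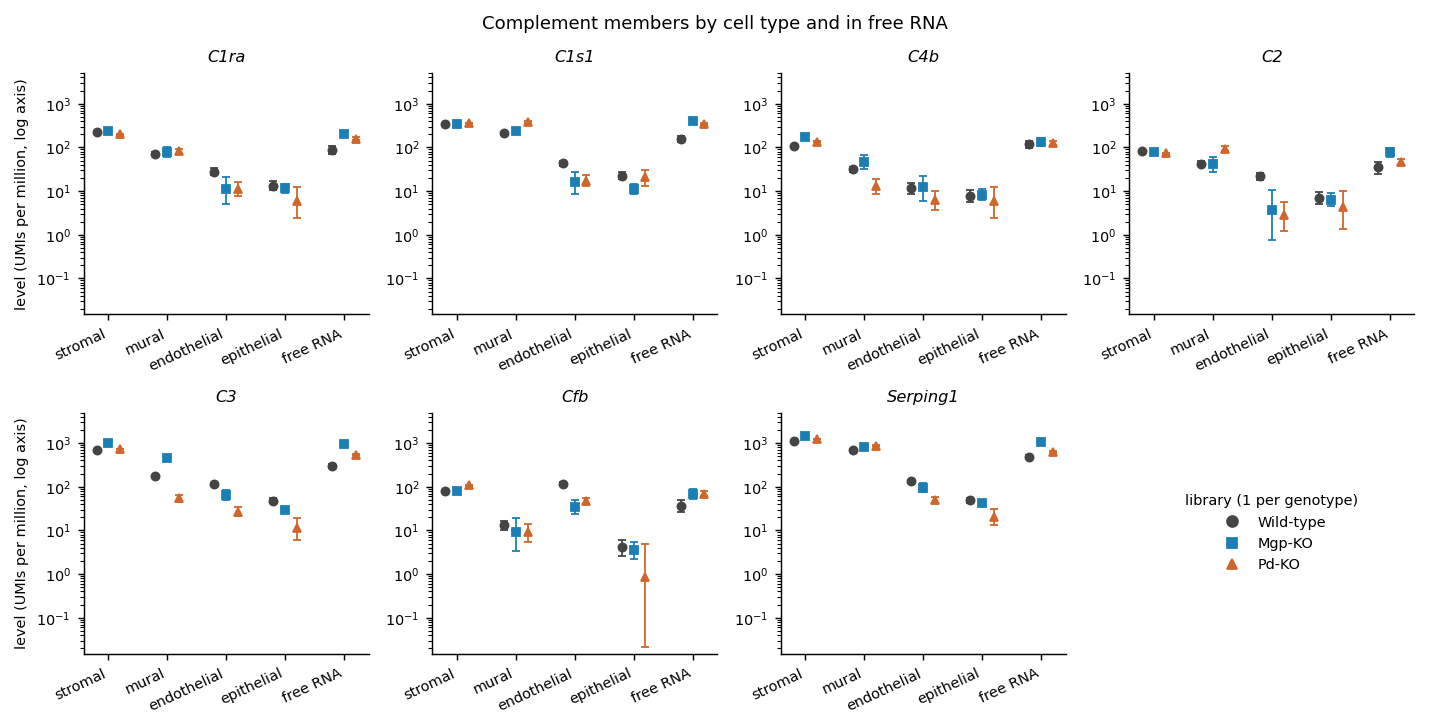
Level of each member in CPM (log axis) in stromal, mural, endothelial and epithelial cells and in free RNA, 1 point per library, with bars for the 95% counting interval. *Serping1* and *C1s1* sit nearly as high in mural as in stromal cells, *Cfb* is the only member with endothelial above mural levels in all 3 libraries, and epithelial cells are at or near the bottom of every panel.

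Of the types compared, the classical pathway proteases were highest in stromal and mural cells, although mural *C1ra* lay below its level in free RNA, described below. *C1ra* stood at 227, 233 and 200 CPM in stromal cells, 72.4, 80.2 and 80.8 CPM in mural cells, 28.0, 10.9 and 11.3 CPM in endothelial cells and 13.2, 11.5 and 6.0 CPM in epithelial cells. Each library kept stromal cells highest and mural cells second, and the stromal excess over mural cells was 1.82 on the log2 scale in edgeR (SE 0.24, adjusted p = 7.17e-05). *C1s1*, whose product is activated by C1r, was spread more evenly, at 349, 340 and 367 CPM in stromal and 218, 238 and 380 CPM in mural cells. In *Pd*-KO the mural level of *C1s1* lay above the stromal one, and the edgeR difference of 0.67 (SE 0.28) missed the threshold (adjusted p = 0.0770). There were 3.01, 2.96 and 4.70 *C1s1* UMIs per *C1ra* UMI in mural cells against 1.54, 1.46 and 1.84 in stromal cells, with no overlap between the types.

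*C4b* and *C2* supply the pieces of the classical C3 convertase. *C4b* stood at 109, 175 and 135 CPM in stromal cells, 31.6, 46.9 and 12.8 CPM in mural cells and 11.5, 12.1 and 6.34 CPM in endothelial cells, with the order stromal, mural, endothelial, epithelial in every library. *C2* was at 82.7, 78.1 and 73.5 CPM in stromal cells and 42.2, 40.9 and 93.6 CPM in mural cells. The *Pd*-KO mural level of *C2* exceeded the stromal one, and the edgeR difference between the types was 0.72 (SE 0.43, adjusted p = 0.215). In endothelial cells *C2* was at 22.0 CPM in wild-type but 3.64 and 2.82 CPM in the knockouts, the last 2 from 3 and 8 UMIs.

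*C3*, the central component, had 694, 1022 and 725 CPM in stromal cells against 175, 453 and 54.8 CPM in mural, 114, 65.5 and 26.8 CPM in endothelial and 47.9, 28.9 and 11.1 CPM in epithelial cells. The mural values spread over the widest range of any member in that type. In the *Mgp*-KO library the 299 mural *C3* UMIs came from 11.9% of 177 cells, whereas *Serping1* UMIs were found in 84.7% of the same cells. The stromal excess of *C3* was 4.11 on the log2 scale over endothelial cells (adjusted p = 4.09e-05 in edgeR) and 2.59 over mural cells (adjusted p = 0.00123).

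*Cfb* had the smallest stromal excess over endothelial cells of the 7 members. It stood at 79.0, 81.5 and 109 CPM in stromal cells and at 117, 35.2 and 47.5 CPM in endothelial cells, so that wild-type endothelial cells exceeded stromal cells while both knockouts showed the reverse. The edgeR difference of 0.82 (SE 0.31) was just past the threshold (adjusted p = 0.0487). It was lost without the *Mgp*-KO library (0.63, adjusted p = 0.296), without the *Pd*-KO library (0.37, adjusted p = 0.434), without the library block (0.64, adjusted p = 0.357), at 5000 UMIs (0.39, adjusted p = 0.329) and with DESeq2 (0.81, adjusted p = 0.106). Without TMM normalization, and at most 5% mitochondrial UMIs, 6 of the 7 members were called against endothelial cells. Per library, the *Cfb* difference between stromal and endothelial cells, neighbours in the order of types, was 0.62 ± 1.02 (SD, n = 3 libraries) on the log2 scale. Mural cells had 13.0, 9.08 and 9.13 CPM of *Cfb* and epithelial cells 4.11, 3.54 and 0.857 CPM, the last from 1 UMI.

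*Serping1*, the inhibitor, was abundant in stromal (1100, 1464 and 1218 CPM) and mural cells (706, 828 and 876 CPM). It was lower in endothelial cells (132, 95.9 and 49.6 CPM) and epithelial cells (49.0, 42.2 and 20.6 CPM). Stromal cells exceeded mural cells by 0.96 in edgeR (adjusted p = 0.0160), a call lost without the *Mgp*-KO library (0.88, adjusted p = 0.182). The order of the 4 types was the same in each library.

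RNA free in the droplets bears on the low values and on those of mural cells. Barcodes of 10 to 100 UMIs, taken as free RNA, held 1222, 2892 and 1917 CPM of the 7 members together. Stromal cells, at 2640, 3393 and 2827 CPM, were above it in each library for the 7 members together. Taken singly, stromal *C4b* in wild-type and *C1s1* in *Mgp*-KO lay below free RNA, and *C2* in *Mgp*-KO was about level with it. *C4b* was also below free RNA in every wild-type gate, as was *C3* in the *Icam1*, *Mmp3* and *Gdf10* gates of *Mgp*-KO. Mural cells, at 1257, 1695 and 1506 CPM for the 7 together, were about level with free RNA in wild-type and below it in both knockouts. The members differed in this. Mural *Serping1*, *C1s1* and *C2* were above free RNA in wild-type and *Pd*-KO and below it in *Mgp*-KO. Mural *C1ra*, *C3*, *C4b* and *Cfb* were below it in each library. How much of the stromal and mural levels came from free RNA was not tested. Epithelial cells stayed at 0.0124 to 0.20 times the free RNA level for every member and library. Endothelial *Cfb* stood at 3.19, 0.515 and 0.685 times the free RNA level, against 0.113, 0.0519 and 0.0124 times in epithelial cells. The other members ranged from 0.0399 to 0.632 times in endothelial cells, and how much of their level came from free RNA was not tested.

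At a fixed depth *Serping1* and *C3* were found in most stromal cells. Each cell was thinned to 2000 UMIs before cells with at least 1 UMI of a gene were counted. *Serping1* was then detected in 76.4%, 84.5% and 81.9% of stromal cells, against 12.6%, 4.01% and 2.61% of epithelial cells, and *C3* in 52.1%, 65.0% and 52.2% against 9.26%, 2.93% and 2.61%. Without thinning the *Serping1* shares were 97.5%, 95.6% and 95.9% of stromal and 54.1%, 8.33% and 13.9% of epithelial cells, whose median depths were 19282.5, 8004 and 9482 UMIs. *C2* and *Cfb* were the sparsest members, in 14.5%, 14.3% and 12.5% and in 13.1%, 13.7% and 17.6% of thinned stromal cells. A thinned stromal cell held UMIs of 2.55, 2.90 and 2.63 members on average, and 72.2%, 90.3% and 89.6% of epithelial cells held none. The cells with no type and no *Pdgfra* UMI held 2.28, 2.98 and 2.35 members on average.

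Within the stroma the members differed in how they were spread over the gates. UMIs summed per library and gate were compared as above, each gate with the mean of the other 3, over 13693 genes. In the *Pi16* gate *C3* was higher, 1 of 7 members where 19.3% of all genes were, and *C1ra*, *C1s1*, *C4b* and *C2* were lower, 4 of 7 where 19.6% of all genes were. In the *Icam1* gate *Serping1* was lower, 1 of 7 where 7.34% of all genes were. In the *Gdf10* gate *C2* and *Serping1* were higher, 2 of 7 where 4.37% of all genes were. In the *Mmp3* gate edgeR called 0 members, where 5.05% of all genes were called in either direction; 4 members had an unadjusted p under 0.05, and DESeq2 called 0 as well. The median difference over the 7 members was -0.61, -0.42, 0.32 and 0.35 in the *Pi16*, *Icam1*, *Mmp3* and *Gdf10* gates, beside medians of -0.01 to 0.01 over all genes.

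**Figure D2:**
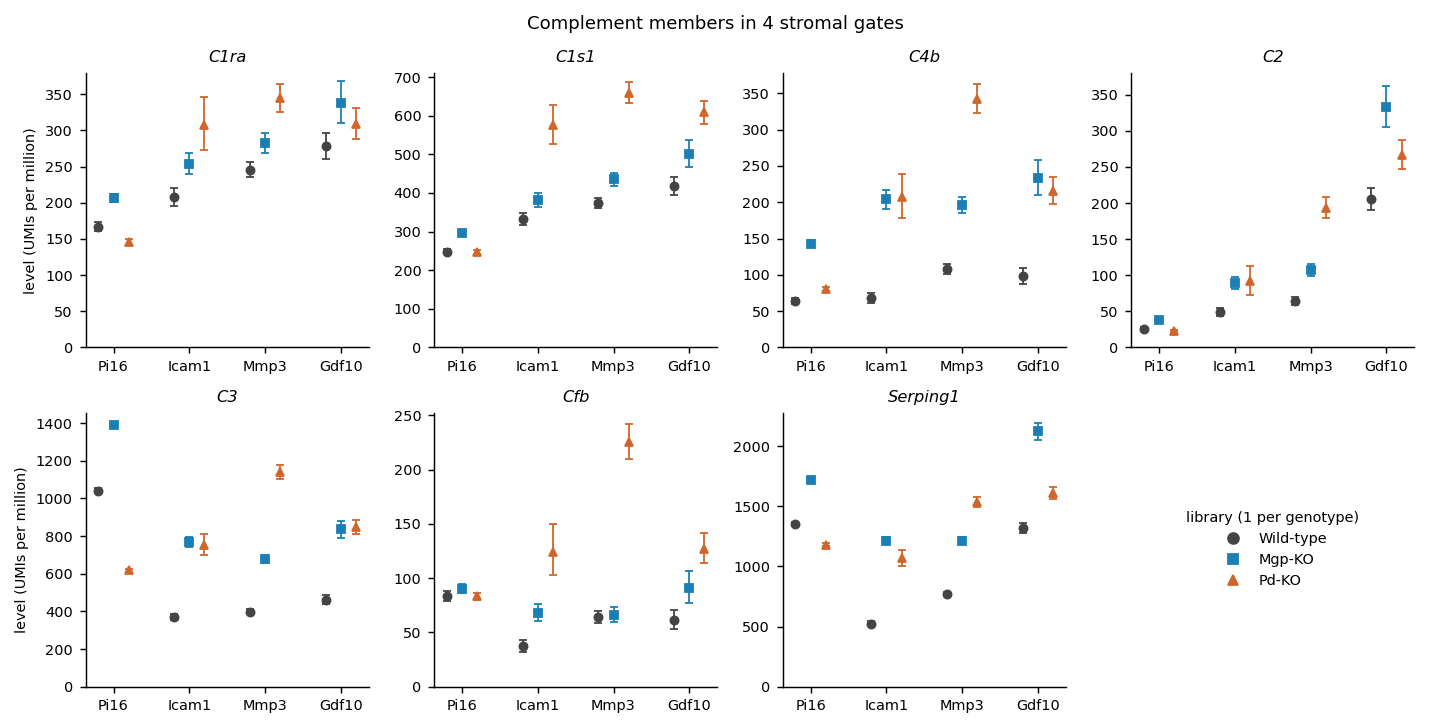
Level of each member in CPM (linear axis from 0) in the 4 stromal gates, 1 point per library, with bars for the 95% counting interval. *C1ra*, *C1s1*, *C4b* and *C2* are lowest in the *Pi16* gate in every library, whereas *C3* is highest there in wild-type and *Mgp*-KO and lowest there in *Pd*-KO.

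*C2* had the steepest gradient. It stood at 25.2, 38.3 and 23.0 CPM in the *Pi16* gate, 48.6, 88.9 and 91.5 CPM in the *Icam1* gate, 64.7, 107 and 193 CPM in the *Mmp3* gate and 205, 333 and 266 CPM in the *Gdf10* gate. The *Pi16*-gate level was below that of *C2* in free RNA in each library. How much of the low end of the gradient came from free RNA was not tested. The order of the 4 gates was the same in all 3 libraries, each step exceeded its SD between libraries, and the *Gdf10* gate was 8.12, 8.69 and 11.6 times the *Pi16* gate. The edgeR difference of *C2* was -2.09 on the log2 scale in the *Pi16* gate (SE 0.20, adjusted p = 8.88e-07) and 2.04 in the *Gdf10* gate (SE 0.17, adjusted p = 2.68e-06). Both calls held without each library in turn. At 2000 UMIs per cell *C2* was found in 32.0%, 41.6% and 41.7% of cells in the *Gdf10* gate and in 5.11%, 7.01% and 4.06% of cells in the *Pi16* gate.

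*C1ra* and *C1s1*, the paired proteases, were both low in the *Pi16* gate. *C1ra* was at 167, 207 and 145 CPM in the *Pi16* gate, 208, 254 and 307 CPM in the *Icam1* gate, 245, 282 and 344 CPM in the *Mmp3* gate and 278, 338 and 309 CPM in the *Gdf10* gate. *C1s1* was at 248, 295 and 247 CPM in the *Pi16* gate, 333, 382 and 576 CPM in the *Icam1* gate, 374, 435 and 660 CPM in the *Mmp3* gate and 418, 502 and 608 CPM in the *Gdf10* gate. For both genes the *Pi16* gate was lowest and the *Icam1* gate second in each library, and the *Mmp3* and *Gdf10* gates did not differ beyond the spread between libraries (0.10 ± 0.22 for *C1ra* and 0.08 ± 0.18 for *C1s1*, log2, SD, n = 3). The edgeR difference of the *Pi16* gate was -0.61 for *C1ra* (SE 0.11, adjusted p = 0.000251) and -0.71 for *C1s1* (SE 0.11, adjusted p = 0.000105). The number of *C1s1* UMIs per *C1ra* UMI stayed within 1.49 to 1.60 over the 4 wild-type gates and 1.43 to 1.54 over those of *Mgp*-KO, and was 1.70 to 1.97 in *Pd*-KO.

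*C4b* followed them at a lower level. It was at 63.8, 143 and 80.8 CPM in the *Pi16* gate, 67.5, 204 and 207 CPM in the *Icam1* gate, 108, 196 and 343 CPM in the *Mmp3* gate and 97.8, 233 and 216 CPM in the *Gdf10* gate. The *Pi16* gate was lowest in each library, but in wild-type it was barely below the *Icam1* gate, while the *Mmp3* and *Gdf10* gates changed places between libraries. The *Pi16* gate differed by -0.77 in edgeR (SE 0.18, adjusted p = 0.00294), and the difference of 0.60 in the *Mmp3* gate missed the threshold (adjusted p = 0.0612).

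*C3* had the *Pi16* gate at the other end in 2 of the 3 libraries. In the *Pi16* gate it was at 1042, 1389 and 619 CPM, in the *Icam1* gate at 370, 769 and 755 CPM, in the *Mmp3* gate at 399, 678 and 1141 CPM and in the *Gdf10* gate at 461, 836 and 848 CPM. The *Pi16* gate was the highest in wild-type and *Mgp*-KO and the lowest in *Pd*-KO, and no neighbours in the mean order of gates differed beyond their SD. The edgeR difference of 0.75 (SE 0.22, adjusted p = 0.0123) was lost without the wild-type library (0.37, adjusted p = 0.312) and without the *Mgp*-KO library (0.65, adjusted p = 0.146), and rose to 1.20 without the *Pd*-KO library (adjusted p = 1.24e-06). Thinned to 2000 UMIs, 71.7%, 83.7% and 54.4% of *Pi16*-gate cells held a *C3* UMI, against 38.1%, 49.4% and 60.1% in the *Mmp3* gate.

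*Cfb*, which acts with C3b in the alternative pathway, showed no gate difference past the threshold. It was at 83.5, 90.5 and 83.4 CPM in the *Pi16* gate, 37.3, 68.0 and 125 CPM in the *Icam1* gate, 64.5, 66.3 and 226 CPM in the *Mmp3* gate and 61.2, 90.9 and 127 CPM in the *Gdf10* gate. The *Pi16* level was nearly the same in the 3 libraries, and it was the highest gate in wild-type and the lowest in *Pd*-KO. The edgeR differences ranged from -0.50 in the *Icam1* gate (adjusted p = 0.198) to 0.35 in the *Mmp3* gate (adjusted p = 0.514).

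*Serping1* was higher in the *Gdf10* gate and lower in the *Icam1* gate, each against the mean of the other gates. It was at 1351, 1721 and 1181 CPM in the *Pi16* gate and 1318, 2123 and 1607 CPM in the *Gdf10* gate, against 523, 1216 and 1069 CPM in the *Icam1* gate and 769, 1214 and 1534 CPM in the *Mmp3* gate. The *Icam1* gate was lowest in wild-type and *Pd*-KO and about level with the *Mmp3* gate in *Mgp*-KO. In edgeR the *Icam1* gate differed by -0.69 (SE 0.15, adjusted p = 0.00562) and the *Gdf10* gate by 0.50 (SE 0.14, adjusted p = 0.0449). Without the wild-type library both calls were lost (adjusted p = 0.0659 and 0.119), and without the *Mgp*-KO library the *Gdf10* call was lost (adjusted p = 0.286). Several other alternatives called 1 member in the *Gdf10* gate in place of 2. They were DESeq2, at least 5000 UMIs, at most 5% mitochondrial UMIs, a gate of 1 UMI, gates on thinned cells and no replicate block.

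**Figure D3:**
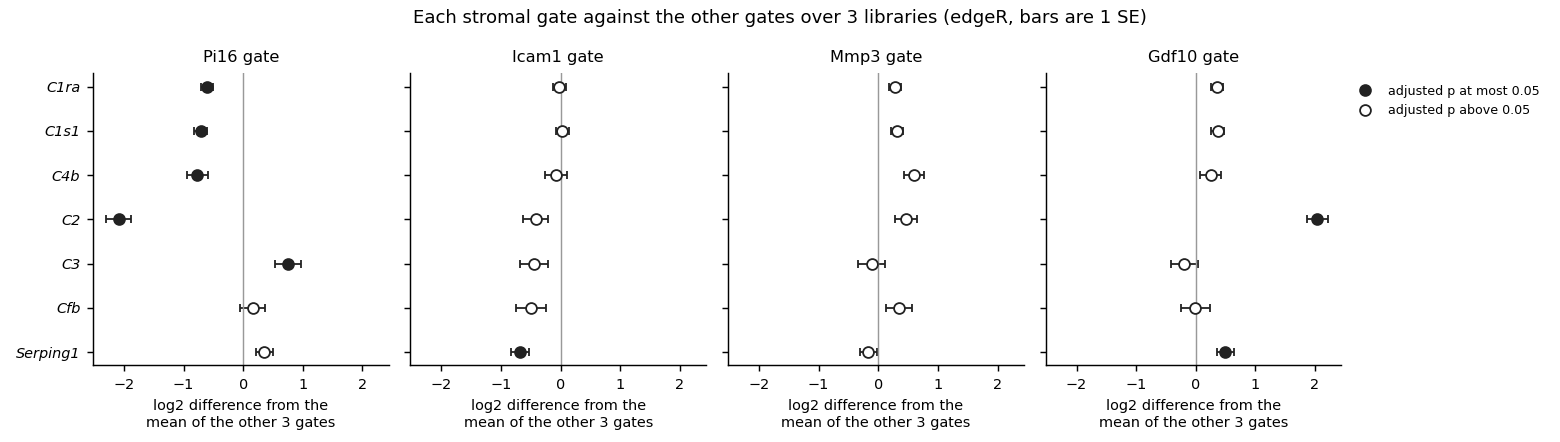
Log2 difference of each member between a gate and the mean of the other 3 gates, from edgeR over 3 libraries, with bars of 1 SE and filled points for an adjusted p of at most 0.05. *C2* has the farthest points, -2.09 in the *Pi16* gate and 2.04 in the *Gdf10* gate, and the *Mmp3* panel has no filled point.

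The number of calls shifted with single libraries. Without the *Pd*-KO library edgeR called 7 members in the *Pi16* gate, 4 in the *Icam1* gate, 1 in the *Mmp3* gate and 4 in the *Gdf10* gate. Without the wild-type library the counts were 4, 0, 0 and 1, and without the *Mgp*-KO library 4, 1, 1 and 1. Immediate early genes, which respond to handling of the tissue, also varied between gates: *Fos*, *Fosb*, *Jun*, *Junb*, *Egr1*, *Ier2* and *Atf3* summed to 4081, 6715 and 2096 CPM in the *Pi16* gate, 15063, 20414 and 10001 CPM in the *Icam1* gate, 11019, 15408 and 6726 CPM in the *Mmp3* gate and 9674, 12882 and 5173 CPM in the *Gdf10* gate. Their part in the member differences was not tested.

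Cells in single gates carried several members at once. At 2000 UMIs per cell, 21.6%, 34.1% and 50.9% of *Mmp3*-gate cells held UMIs of at least 4 of the 7 members, as did 28.6%, 46.6% and 37.3% of *Gdf10*-gate cells, 19.2%, 33.4% and 17.3% of *Pi16*-gate cells and 14.9%, 34.1% and 33.0% of *Icam1*-gate cells. Of stromal cells with no gate, 9.06%, 23.8% and 21.8% held 4 or more. That share was below each gate in wild-type and *Mgp*-KO, but above the *Pi16* gate (17.3%) in *Pd*-KO. Across the 12 sums of library and gate, which share libraries and depth, the log2 level of *C1ra* had a Pearson correlation of 0.95 with *C1s1*, 0.92 with *C2* and 0.83 with *C4b*, but 0.10 with *C3*. *C3* had its highest values with *Serping1* (0.77) and *Cfb* (0.71). The members did not fall into separate groups. *Cfb* also had 0.69 with *C4b* and 0.58 with *C1s1*, and *C4b* had 0.54 with *Serping1* and 0.48 with *C3*.

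Between genotypes, values are ratios of 1 library to 1 library with a 95% exact conditional binomial interval for counting error, and they carry no test. The median ratio over all genes in stromal cells was 0.15 in *Mgp*-KO and 0.18 in *Pd*-KO on the log2 scale, and member ratios are to be read against that shift. Over all stromal cells few member ratios passed 1.5-fold. In *Mgp*-KO 1 of 7 members, *C4b*, was past 1.5-fold higher, where 28.3% of all genes were, and in *Pd*-KO 0 of 7 were past 1.5-fold in either direction, where 46.2% of all genes were. *C4b* was at 175 CPM in *Mgp*-KO against 109 CPM in wild-type (log2 ratio 0.69, 0.65 to 0.72), *C3* had a log2 ratio of 0.56 (0.54 to 0.57) and *Serping1* of 0.41, whereas *C1ra*, *C1s1*, *C2* and *Cfb* lay between -0.08 and 0.05. In *Pd*-KO the ratios ran from -0.18 for *C1ra* to 0.47 for *Cfb*.

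Within single gates most *Mgp*-KO ratios lay above those over all stromal cells. The exceptions were *C3* (0.41 against 0.56) and *Serping1* (0.35 against 0.41) in the *Pi16* gate and *Cfb* in the *Mmp3* gate (0.04 against 0.05). In the *Pi16* gate 2 of 7 members were past 1.5-fold higher, where 22.9% of all genes were, in the *Icam1* gate 5 of 7 (28.2% of all genes), in the *Mmp3* gate 4 of 7 (29.6%) and in the *Gdf10* gate 4 of 7 (23.1%). *C4b* was past the fold in all 4, with log2 ratios of 1.16 (1.07 to 1.26), 1.59 (1.42 to 1.77), 0.86 (0.73 to 0.99) and 1.25 (1.03 to 1.47). *C2* had ratios of 0.60 to 0.87 in the 4 gates against -0.08 (-0.13 to -0.03) over all stromal cells. The *Pi16* gate, where *C2* is lowest, held 19.2% of wild-type and 36.4% of *Mgp*-KO stromal cells, and in cells of several gates *C2* stood at 109 CPM in wild-type and 110 CPM in *Mgp*-KO. In cells with no gate it stood at 33.0 and 58.8 CPM. The part of these shares in the *C2* ratio over all stromal cells was not tested.

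In *Pd*-KO the *Pi16* gate went apart from the others. There 1 of 7 members, *C3*, was past 1.5-fold lower, where 8.99% of all genes were, with a log2 ratio of -0.75 (-0.78 to -0.72). In the *Icam1* gate 6 of 7 members were past 1.5-fold higher, where 29.1% of all genes were, in the *Mmp3* gate 6 of 7 (31.8%) and in the *Gdf10* gate 3 of 7 (30.6%). *C3* itself had ratios of 1.03 (0.90 to 1.16), 1.51 (1.45 to 1.58) and 0.88 (0.78 to 0.98) in those 3 gates. In the *Mmp3* gate the highest ratios were those of *Cfb* (1.81, 1.65 to 1.97), *C4b* (1.67, 1.54 to 1.79) and *C2* (1.58, 1.41 to 1.74), and in the *Icam1* gate *Cfb* stood at 1.74 and *C4b* at 1.62. The *Icam1* gate of *Pd*-KO held 100 cells, and its ratios have the widest intervals.

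**Figure D4:**
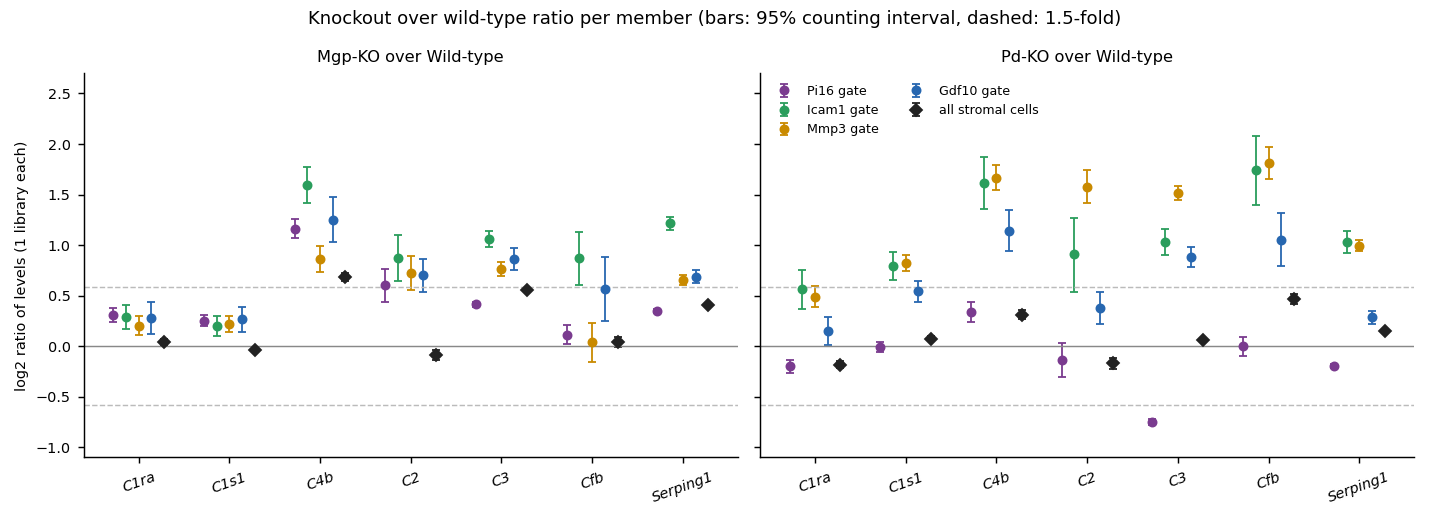
Log2 ratio of each member's level in a knockout library to the wild-type library, in the 4 gates and in all stromal cells, with bars for the 95% counting interval and dashed lines at 1.5-fold. *C4b* lies above 1.5-fold in every *Mgp*-KO gate, and *C3* in *Pd*-KO is at -0.75 in the *Pi16* gate and at 0.88 to 1.51 in the other gates.

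The sex composition of the libraries differed, so ratios were repeated within cells called female, with *Xist* detected and Y-linked genes absent, or male, with the reverse. Of stromal cells 34.4%, 60.4% and 32.4% were called female and 38.7%, 16.8% and 43.2% male. The *Pd*-KO ratio of *C3* was -0.87 in female and -0.77 in male cells of the *Pi16* gate, 1.19 and 1.38 in the *Mmp3* gate and 0.96 and 0.57 in the *Gdf10* gate. Its direction in each of these 3 gates was the same in both sexes. In *Mgp*-KO the counts moved with both sex and gate setting. In the *Mmp3* gate 1 of 7 members was past 1.5-fold in female cells and 5 of 7 in male cells. With gates set on cells thinned to 2000 UMIs, 1 of 7 members was past 1.5-fold in the *Icam1* gate and 1 in the *Mmp3* gate, and the *C2* ratio in the *Gdf10* gate was -0.02 in place of 0.70.

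Other complement genes were sparse in these cells. Of 49 further gene symbols listed for the pathway, 48 were found. The remaining symbol, *C5*, is another name of *Hc*, which was found. In the gates and types with at least 50 cells in a library, 36 of the 48 stayed under 20 CPM and 3 had no UMI. The chains of C1q, which the C1r and C1s proteases bind, were among the lowest. *C1qa*, *C1qb* and *C1qc*, named after their values were seen, reached at most 0.902, 0.618 and 0.772 CPM there, in a fraction depleted of leukocytes. The leukocyte-gated cells, which numbered 15, 7 and 45, were too few to count in these maxima. The 12 genes at 20 CPM or more included *Cd55*, *Cd59a*, *Cr1l*, *Csmd1*, *Clu* and *Vtn*, which regulate the cascade, *Cfd*, a protease of the alternative pathway, *Hc* (C5) and *C7* of the terminal pathway, and the collectins *Colec11* and *Colec12*.

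The other complement genes also differed between gates. Of 19 listed genes tested, edgeR called 6 higher and 7 lower in the *Pi16* gate, where 19.3% and 19.6% of all genes were. In the *Icam1* gate it called 2 higher and 3 lower (8.87% and 7.34% of all genes), in the *Mmp3* gate 3 higher and 2 lower (3.15% and 1.91%), and in the *Gdf10* gate 5 higher and 1 lower (4.37% and 2.69%). *Vtn*, whose product blocks the membrane attack complex, was lower in the *Pi16* gate (-2.72, adjusted p = 3.48e-08), with 15.4, 5.28 and 4.72 CPM there. *Cd55*, which speeds the decay of C3 convertases, was higher in the *Pi16* gate (2.46, adjusted p = 5.11e-12), but it is also a check marker of that gate. *C7* was higher in the *Pi16* and *Gdf10* gates (1.73 and 1.39) and lower in the *Icam1* and *Mmp3* gates (-1.86 and -1.26).

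Other types carried their own complement genes. *Clu* stood at 857, 310 and 265 CPM in endothelial cells and 419, 338 and 462 CPM in epithelial cells, against 29.1, 11.9 and 7.97 CPM in stromal cells. *Colec11* stood at 41.0, 16.7 and 37.4 CPM in mural cells and *Cd59a* at 94.4, 110 and 72.2 CPM in endothelial cells. Both were higher there than in stromal cells in edgeR (-4.67, adjusted p = 1.91e-07, for stromal against mural *Colec11*, and -3.86, adjusted p = 3.55e-08, for stromal against endothelial *Cd59a*). *Cd59a* was not particular to endothelial cells. Its edgeR difference was -3.09 for stromal against mural (adjusted p = 3.6e-07) and -0.96 against epithelial cells (adjusted p = 0.0027). Its highest level was 410 CPM, in 113 Schwann-gated cells of wild-type. *Csmd1*, a very long gene, was at 1.05 CPM in wild-type stromal cells against 18.6 and 35.4 CPM in the knockouts, which were processed with a later pipeline version. The part of that version in this difference was not tested.

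The genes whose levels were most like each member were ranked over 23 sums of library and gate or type, among 10499 genes at 20 CPM or more in one of them. For *C1ra* these were *Ctsk*, *Col6a1* and *Lgi2* (Pearson r 0.98 each), and for *C1s1* *Cygb* (0.98), *Parp3* (0.97) and *C1ra* itself (0.97). *C2* went with *Cygb* (0.94), *Vit* (0.93) and *Bgn* (0.93), and *C4b* with *Podn* (0.97), *Lgi2* (0.97) and *Olfml1* (0.96). *C3* went with *Clec3b*, *Efemp1* and *Loxl1* (0.95 each), and *Serping1* with *Prrx1* (0.97), *Dse* (0.96) and *Htra1* (0.96). *Cfb* had the nearest genes *Rab3il1* (0.94), *C430049B03Rik* (0.94) and *Il3ra* (0.92). The points share libraries, depth and the split between stromal and other cells, so these values describe likeness only.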

How the data were processed

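The authors deposited raw UMI counts, 1 gene-by-barcode matrix per library, made with Cell Ranger. The matrix headers name version 4 for wild-type and 7.1.0 for both knockouts, whereas the submitters' processing notes list 6.1.1 and GRCm39 and the study's methods name mm10. The members and gene lists were chosen with earlier results of these data known. No cell annotation was used, and cells were gated on fixed markers.

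Genes with at least 10 UMIs in at least 3 of the 12 sums were tested with edgeR 4.0.16 (R 4.3.3; quasi-likelihood test, TMM normalization, Benjamini-Hochberg adjustment over all genes tested, threshold 0.05), with the library as a block. DESeq2 1.42.0 served as an alternative. With 1 library per genotype, ratios of CPM were given for genes with at least 100 UMIs in both libraries together, with a fold of 1.5. On simulated counts for the *Pi16* gate contrast (13350 genes) edgeR recovered 88.9% of genes changed by 1 on the log2 scale and 99.0% of those changed by 2, and for stromal against endothelial cells (15693 genes) 49.5% and 90.4%. The simulation gave all genes the same dispersion and each changed gene the same change in every library, so these rates need not hold for the real counts. Named genes were all members, listed complement genes at 20 CPM or more in a gate or type with at least 50 cells, the 3 genes most correlated with each member by log2(CPM + 1), and *Mgp* as the check of the deletion. The library block takes out each library's own level of a gene. The adjusted p-values therefore rest on how the differences between gates or types varied over these 3 libraries. Intervals are 95% and cover counting error only. Alternatives covered the test, scaling, filters, depth, gate settings, sex, shared barcodes and free RNA (10% of UMIs subtracted). Counting used Python 3.11.15. A listed complement gene is not reported here.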

Additional observations from a re-analysis of the deposited data

Results flagged for a closer look

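The *Pd*-KO over wild-type ratio of *C3* had opposite directions between stromal gates. It was 1.03 in the *Icam1* gate, 1.51 in the *Mmp3* gate and 0.88 in the *Gdf10* gate on the log2 scale, against -0.75 in the *Pi16* gate. With 1 library per genotype the difference between gates was not tested. Over the alternative settings the ratio stayed between -0.90 and -0.53 in the *Pi16* gate, 0.82 and 1.48 in the *Icam1* gate, 1.04 and 1.88 in the *Mmp3* gate, and 0.57 and 0.96 in the *Gdf10* gate.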

How the results depend on the processing

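Of 602 refitted differences, 514 kept direction and side of the threshold, 35 gained and 25 lost a call, and 28, all of uncalled differences, turned sign. Causes were not tested. Counts of members called moved by over 1.5 times as follows. In the *Pi16* gate (5) the fit with no replicate block called 3, and leaving out libraries gave 4 to 7. In the *Icam1* gate (1) it was 4 with no filter, 0 with no replicate block, 2 with cells of several gates placed by most UMIs (a setting chosen after seeing the data) and 0 to 4 without single libraries. In the *Mmp3* gate (0) it was 5 with no filter, 1 with a gate of 3 UMIs, 2 by most UMIs and 0 to 1 without single libraries. In the *Gdf10* gate (2) it was 1 with DESeq2, at least 5000 UMIs, at most 5% mitochondrial UMIs, a gate of 1 UMI, gates on thinned cells or no replicate block, 4 with no TMM or no filter, and 1 to 4 without single libraries. Against mural cells (5) it was 3 with no replicate block and 4 to 6 in the other alternatives, and against endothelial cells (7) it was 6 or 7. The block stands for the library, and no other pairing was possible because each genotype had 1 library.

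The differences that turned sign ran from -0.17 to 0.35 as reported. In the *Icam1* gate *C1ra* (-0.02) was 0.0012 with DESeq2, 0.0165 without TMM, 0.0326 at 5000 UMIs, 0.0411 with a gate of 1 UMI, 0.0941 on thinned cells and -0.13 to 0.042 without single libraries. There *C1s1* (0.02) was -0.0149 with no filter and -0.0698 to 0.10 without single libraries, and *C4b* (-0.08) was 0.0727 with a gate of 3 UMIs, 0.42 on thinned cells, 0.0773 by most UMIs and -0.16 to 0.0714 without single libraries. *Cfb* in the *Pi16* gate (0.16) was -0.0008 with no replicate block, -0.0039 by most UMIs and -0.13 to 0.55 without single libraries. In the *Mmp3* gate *Serping1* (-0.17) was 0.016 by most UMIs, *C3* (-0.11) was 0.0174 on thinned cells, 0.0046 by most UMIs and -0.53 to 0.075 without single libraries, and *Cfb* (0.35) was -0.0929 to 0.63 without single libraries. In the *Gdf10* gate *Cfb* (-0.01) was 0.0465 without TMM, 0.0514 by most UMIs, 0.0656 with a gate of 3 UMIs and -0.10 to 0.13 without single libraries, and *C4b* (0.25) was -0.16 on thinned cells.

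Members past 1.5-fold in *Mgp*-KO moved in stromal cells (1) to 2 in female cells or with cells weighted equally and 0 in male cells or with median ratio scaling. In the *Pi16* gate (2) they moved to 1 at 5000 UMIs, at 5% mitochondrial UMIs, in either sex, with a gate of 3 UMIs, on thinned cells, by most UMIs, with median ratio scaling or with free RNA subtracted. In the *Icam1* gate (5) they moved to 1 on thinned cells. In the *Mmp3* gate (4) they moved to 2 at 5000 UMIs or with median ratio scaling, 1 in female cells, on thinned cells or by most UMIs, and 0 with a gate of 3 UMIs. In the *Gdf10* gate (4) they moved to 2 at 5000 UMIs, with a gate of 3 UMIs, on thinned cells or by most UMIs, and the *C2* ratio (0.70) was -0.0236 on thinned cells. In *Pd*-KO the 1 member of the *Pi16* gate moved to 0 with a gate of 1 UMI. Ratios for female cells of the *Icam1* gate in *Pd*-KO, and for male cells of some gates, were not run for want of 50 cells.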

Other observations

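Every member's level lay above the female one in male stromal cells of each library, with no test made. In *Mgp*-KO the intervals of *C1ra* (-0.04 to 0.08) and *C4b* (-0.01 to 0.13) included 0. The log2 ratio of *Cfb* was the largest in wild-type and *Mgp*-KO, and that of *C4b* (0.43) in *Pd*-KO. *Cfb* stood at 90.6 CPM in male and 59.2 CPM in female cells of wild-type (log2 ratio 0.61, 0.54 to 0.69). It was at 116 and 61.2 CPM in *Mgp*-KO (0.93, 0.83 to 1.02) and at 111 and 87.7 CPM in *Pd*-KO (0.33, 0.25 to 0.42). Within the *Pi16* gate the ratios were smaller, 0.15, 0.34 and 0.30, and in the *Mmp3* gate they were 0.56, 1.55 and 0.50. *C3* differed between the sexes by gate: the male over female ratio was -0.16, -0.38 and -0.06 in the *Pi16* gate and 0.34, 1.15 and 0.53 in the *Mmp3* gate. The male excess over all stromal cells was also absent for other members in single gates. In the *Pi16* gate the ratio of *C1ra* was -0.21, -0.23 and 0.19 and that of *C4b* was -0.60, -0.65 and 0.20. Each library pooled mice, the cells of a sex came from an unknown number of them per gate.

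Small groups of other cells held UMIs of the members too. In 113 wild-type adipocyte-gated cells *C3* stood at 321 CPM and *Serping1* at 185 CPM, and in 21 such cells of *Pd*-KO at 1643 and 1164 CPM. Among 45 leukocyte-gated cells of *Pd*-KO *C3* stood at 85.6 CPM from 15 UMIs. The 7 members together made up 822 CPM of the wild-type adipocyte-gated cells, below the 1222 CPM of free RNA in that library. In *Pd*-KO, where free RNA held 1917 CPM, they made up 4322 CPM of the adipocyte-gated and 251 CPM of the leukocyte-gated cells. How much of these levels came from free RNA was not tested.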
